A study of Mus musculus with 6 samples.

Results

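The genes described here are the Wnt ligands, their receptors, their secreted inhibitors and the effectors of the pathway in mouse embryonic skin. They were chosen by symbol, with earlier results of these data known. The list takes all Wnt, Frizzled, Sfrp, Dkk and Rspo genes in the files, plus 15 named receptors, inhibitors and effectors. Of 56 such genes among 19131 in each library, 51 had 10 or more counts in 3 or more libraries. RNA of skin at embryonic day 17.5 was sequenced in 3 samples lacking Tie1 (knockout) and 3 control samples, both on the C57BL/6N background. Their titles read Tie1ECDKO for the knockout and Tie1ECDWT for the control, and the letters ECD are not explained in the labels. The labels do not say in which cells or by which promoter Tie1 was removed, nor whether each library stands for its own embryo. The p-values thus cover only the spread among these libraries, which may be technical in part. Y-linked genes, given below, differed within each group, so the libraries of a group did not all come from the same embryo. TIE1 is a receptor tyrosine kinase of endothelial cells, and the title of the series names a role for it in limiting sprouting and in forming veins.

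Wnt proteins are lipid-modified secreted signals. In the canonical branch they bring together a Frizzled receptor and the co-receptor LRP5 or LRP6, which stops the AXIN complex from degrading β-catenin, so that β-catenin enters the nucleus and acts with TCF and LEF factors. In skin this branch drives the induction and growth of hair follicles, and the dermis and the vessels use it as well. In the endothelium of the retina and brain, FZD4 and the ligands Norrin and WNT7 guide vessel growth and barrier formation.

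The 6 libraries held 19826856 to 20591164 estimated reads. Levels are given as CPM, reads scaled to a common library total after TMM correction for composition, and 3 reads correspond to 0.147 to 0.155 CPM. Tie1 itself stood at 4.33, 2.63 and 2.26 CPM in knockout skin, against 58.6, 50.7 and 60.0 CPM in control skin, so every library matched its label. In whole skin, fewer cells of a type and less RNA per cell cannot be told apart.

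Loss of Tie1 was not accompanied by a called change in any of the 51 Wnt pathway genes. By edgeR's quasi-likelihood test with Benjamini-Hochberg adjustment over 15035 genes, 0 of the 51 passed an adjusted p under 0.05, against 24 of all genes tested (0.16%, of which 0.0865% higher and 0.0732% lower). limma-voom also called 0 members, with 15 genes called in all. DESeq2 called 2 members, both lower in the knockout, with 210 genes called in all. At an unadjusted p under 0.05 there were 6 members (11.8%), against 7.42% of all genes. Of these, Wnt5a, Fzd1, Axin2 and Lrp6 were higher (4.08% of all genes were, at that p) and Sfrp4 and Fzd4 lower (3.35%). The count was 3 without knockout 2 and also 3 without control 2, fits in which the share of all genes was not counted. The same 6 genes were those whose groups did not overlap (11.8% of members, 13.8% of all genes). The knockout was the higher group in 4 of them (7.03% of all genes) and the lower in 2 (6.78% of all genes).

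Most differences were small. The median log2 fold change of the 51 members, knockout over control, was 0.042, beside 0.0038 over all genes tested, and it was −0.0091 without control 1. It was above 0 in 30 members (58.8%, against 51.2% of all genes) and below 0 in 21. Of the 51, 3 differed by more than 0.5 on the log2 scale, namely Sfrp4, Fzd4 and Wnt2, beside 1133 of all 15035 genes tested. For 44 members (86.3%) the unadjusted 95% interval lay within a log2 fold change of 1 either way, against 86.7% of all genes. In 39 members (76.5%) the difference between the group means was smaller than the SD between libraries of a group, against 65.9% of all genes. The share of members in each of these counts describes the list and was not tested.

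**Figure D1:**
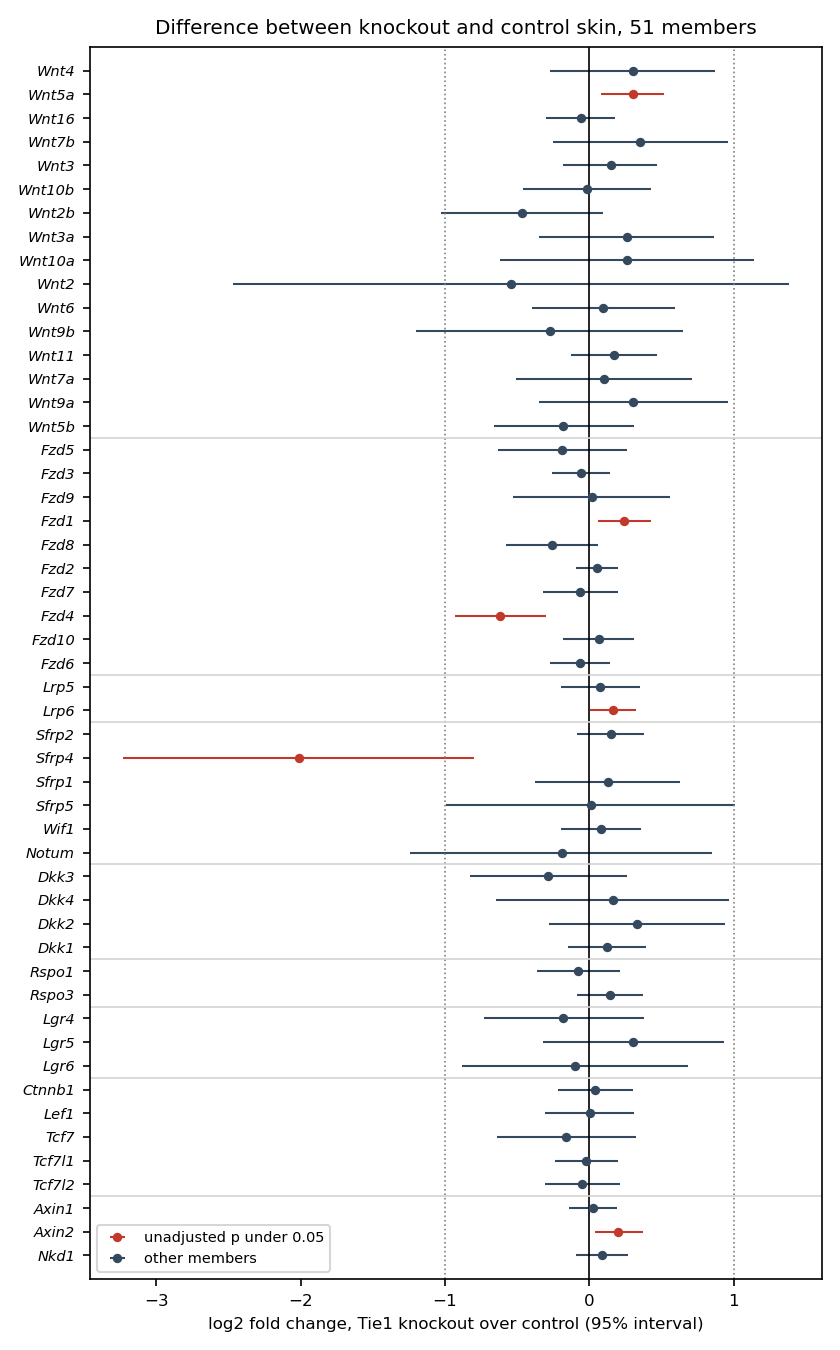
Log2 fold change of each of the 51 members, Tie1 knockout over control, with its unadjusted 95% interval, on the horizontal axis, grouped by role from ligands at the top to intracellular regulators at the bottom. The 6 members in red had an unadjusted p under 0.05, with Sfrp4 at −2.01 and Fzd4 at −0.62 on the lower side and Wnt5a, Fzd1, Axin2 and Lrp6 between 0.16 and 0.30 on the higher side.

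Promoters were available for 34 of the 51 members as RefSeq windows on GRCm38.p6, from 250 bases before to 50 bases after a start site. They were searched on both strands for the 7-base TCF/LEF motifs CTTTGAT and CTTTGAA, which do not overlap each other. Of the 34 genes, 3 held a motif (8.82%), namely Dkk1, Wnt11 and Wnt5b, against 9.88% of all 27025 genes in the table. The windows of 3 genes are shown: Axin2 and Dkk1, whose transcription is known to follow β-catenin, and Fzd4, the member with the smallest p. They lie at chr11:108920099-108920398 on the plus strand (Axin2), chr19:30549447-30549746 on the minus strand (Dkk1) and chr7:89404116-89404415 on the plus strand (Fzd4). Each reads 5′ to 3′ along its gene, and capitals mark a motif.
Axin2: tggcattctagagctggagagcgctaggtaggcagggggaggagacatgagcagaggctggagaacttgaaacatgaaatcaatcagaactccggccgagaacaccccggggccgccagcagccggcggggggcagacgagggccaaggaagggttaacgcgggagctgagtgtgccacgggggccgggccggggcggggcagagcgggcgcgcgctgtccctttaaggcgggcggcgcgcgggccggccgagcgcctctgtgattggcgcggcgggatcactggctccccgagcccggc
Dkk1: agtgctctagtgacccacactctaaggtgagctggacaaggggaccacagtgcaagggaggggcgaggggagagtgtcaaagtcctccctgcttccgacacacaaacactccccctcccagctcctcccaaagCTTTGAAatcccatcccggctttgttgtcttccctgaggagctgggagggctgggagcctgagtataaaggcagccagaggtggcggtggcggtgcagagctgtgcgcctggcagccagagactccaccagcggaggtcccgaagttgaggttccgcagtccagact
Fzd4: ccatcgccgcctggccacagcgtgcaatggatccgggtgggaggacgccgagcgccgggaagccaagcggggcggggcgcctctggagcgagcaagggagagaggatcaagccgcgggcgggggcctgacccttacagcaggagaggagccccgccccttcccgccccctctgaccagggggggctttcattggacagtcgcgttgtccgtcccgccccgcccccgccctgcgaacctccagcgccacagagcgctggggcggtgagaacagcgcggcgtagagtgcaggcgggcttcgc
The Dkk1 window holds CTTTGAA once, starting 117 bases before the start site. The Axin2 and Fzd4 windows hold neither motif, which says only that these letters are absent from these 300 bases.

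Among 19 Wnt ligands, 16 passed the count filter. Wnt1 had 3, 1 and 0 reads in knockout and 2, 1 and 2 reads in control libraries, Wnt8a had 0 reads in every knockout library and 3, 0 and 0 in the controls, and Wnt8b had a single read, in control 3. These 3 ligands were at or under 3 reads in every library and were not tested. Set against transcript length (CPM per kb of the longest coding transcript in GENCODE M21), the most abundant ligands were Wnt4 at 33.5 in knockout and 27.2 in control skin, and Wnt7b at 31.4 in knockout and 24.6 in control skin. Wnt10b and Wnt6, ligands of the epidermis and early hair follicle, followed at 18.3 and 19.9 CPM per kb in knockout skin and at 18.6 each in control skin. Wnt9b was the least abundant ligand tested, at 0.0966 in knockout and 0.117 in control skin on that scale.

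Wnt5a, the main ligand of the β-catenin-independent branch and a dermal signal, stood at 63.1, 70.9 and 66.7 CPM in knockout skin, against 50.6, 50.8 and 61.6 CPM in control skin. Every knockout library was above every control library, by a narrow margin over control 3. Its log2 fold change was 0.30 (SE 0.095, 95% interval 0.077 to 0.52, adjusted p = 0.484 by edgeR). It did not pass the test. It was the ligand with the smallest p.

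Wnt2b was next, with 9.28, 6.35 and 7.12 CPM in knockout and 13.3, 7.48 and 10.7 CPM in control skin, so that the groups overlapped (log2 fold change −0.47, SE 0.24, adjusted p = 0.709 by edgeR). Wnt4, an epidermal ligand, had 118, 183 and 121 CPM in knockout and 84.1, 134 and 123 CPM in control skin (log2 fold change 0.30, SE 0.24, adjusted p = 0.818 by edgeR). Knockout 2 was the highest and control 1 the lowest library for Wnt4, and the value was 0.068 without knockout 2 and 0.13 without control 1. The other 13 ligands had log2 fold changes from −0.54 to 0.35, all with overlapping groups.

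Wnt2, a ligand known from mesenchyme, varied most among the ligands. It stood at 14.1, 4.56 and 3.09 CPM in knockout and 19.8, 3.86 and 8.05 CPM in control skin, a 6.40-fold range over the 6 libraries. Replicate 1 of each group was the highest, and the difference between groups (log2 fold change −0.54, 95% interval −2.47 to 1.38) was smaller than the spread within them. Wnt7b was highest in knockout 1, at 145 CPM, with 96 and 79.6 CPM in the other knockout libraries and 68.2, 101 and 81.4 CPM in control skin.

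All 10 Frizzled genes, which encode the receptors that bind Wnts, passed the filter. Per length the most abundant were Fzd10 and Fzd2, at 35.9 and 33.5 CPM per kb in knockout and 34.3 and 32.2 CPM per kb in control skin. Fzd4, the receptor for Norrin and for several Wnts, known for its role in vessel growth, had the smallest p of all members. It had 19.6, 21.7 and 26.0 CPM in knockout skin, against 39.4, 31.1 and 32.7 CPM in control skin. All knockout libraries were below all control libraries, with a fitted fold of 0.652.

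The log2 fold change of Fzd4 was −0.62 (SE 0.13, 95% interval −0.93 to −0.30), with an edgeR adjusted p of 0.222. It did not pass. DESeq2 called it, at an adjusted p of 0.0128, within a range of 0.0128 to 0.759 over the alternatives. Without replicate 1 of both groups the log2 fold change was −0.42.

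Since FZD4 is an endothelial receptor among other things, the vessel markers stand beside it. The 10 pan-endothelial genes summed to 773, 715 and 831 CPM in knockout and 785, 680 and 713 CPM in control skin, overlapping between the groups. The most abundant genes weigh most in that sum. The mean log2 CPM of the list was 5.80, 5.73 and 5.87 in knockout and 6.00, 5.77 and 5.78 in control skin, which also overlapped. The log2 fold change was above 0 in 5 of the 10 and below 0 in 5. Single genes of that list went both ways: Emcn, a sialomucin of capillaries and veins, stood at 22.7, 22.6 and 24.1 CPM in knockout and 37.1, 32.5 and 29.8 CPM in control skin, and Robo4 at 45.9, 40.2 and 46.8 CPM in knockout and 35.7, 34.6 and 30.1 CPM in control skin. None of the 10 passed edgeR (smallest adjusted p = 0.153), against 0.16% of all genes. At an unadjusted p under 0.05 there were 4 (40%, against 7.42% of all genes), 3 higher and 1 lower (4.08% and 3.35% of all genes). Whether endothelial makeup had a part in the Fzd4 difference was not tested.

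Norrin, a ligand of FZD4, and its co-receptor TSPAN12 were looked at beside it, and in both genes the groups overlapped. Ndp, the gene of Norrin, had 1.19, 2.43 and 2.36 CPM in knockout and 2.17, 2.72 and 3.11 CPM in control skin (log2 fold change −0.42, SE 0.31, adjusted p = 0.803 by edgeR). Tspan12 had 12.8, 15.7 and 15.9 CPM in knockout and 14.9, 13.6 and 16.4 CPM in control skin (log2 fold change −0.019, SE 0.12, adjusted p = 0.981 by edgeR).

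Fzd1 stood at 71.1, 62.9 and 67.4 CPM in knockout and 55.1, 53.9 and 61.3 CPM in control skin. The groups did not overlap, and the log2 fold change was 0.24 (SE 0.079, 95% interval 0.058 to 0.43, adjusted p = 0.498 by edgeR). Fzd2 was the steadiest Frizzled, with 124, 123 and 121 CPM in knockout and 111, 118 and 125 CPM in control skin (log2 fold change 0.054, SE 0.064). The other 7 Frizzled genes had overlapping groups and log2 fold changes from −0.26 (Fzd8) to 0.066 (Fzd10).

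The co-receptor genes Lrp5 and Lrp6 encode the LDL-receptor-related proteins that Wnts join to Frizzleds. Lrp6 had 114, 117 and 129 CPM in knockout and 106, 107 and 109 CPM in control skin, with no overlap between the groups and a log2 fold change of 0.16 (SE 0.066, 95% interval 0.0061 to 0.32, adjusted p = 0.645 by edgeR). Lrp5 had 139, 142 and 153 CPM in knockout and 114, 141 and 157 CPM in control skin, which overlapped (log2 fold change 0.072, SE 0.12, adjusted p = 0.916 by edgeR). Control 1 was the lowest library for Lrp5, and without it the value was −0.047.

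**Figure D2:**
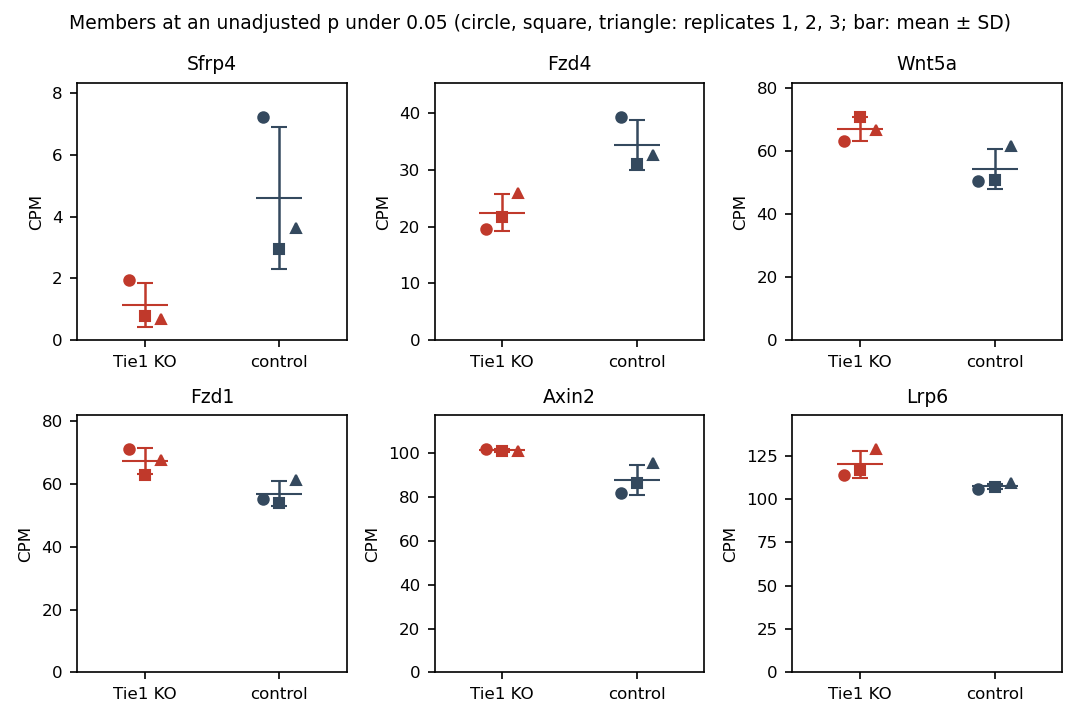
CPM of the 6 members with an unadjusted p under 0.05 in Tie1 knockout (left) and control skin (right), with 1 point per library and bars for mean ± SD (n = 3 each). Sfrp4 and Fzd4 lie lower in the knockout and the other 4 higher, with no overlap between the groups, and none passed the edgeR test after adjustment.

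The secreted inhibitors that bind Wnts directly are the SFRP proteins and WIF1, while NOTUM removes the lipid that Wnts need. The largest difference of any member was that of Sfrp4, which is expressed in mesenchyme and fat tissue. It had 38, 16 and 14 reads in knockout and 147, 60 and 74 reads in control libraries, or 1.96, 0.793 and 0.687 CPM in knockout and 7.25, 2.97 and 3.65 CPM in control skin. Every knockout library was below every control library, although replicate 1 was the highest of both groups.

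The control level of Sfrp4 was 4.04-fold the knockout level by fit. The log2 fold change was −2.01 (SE 0.51, 95% interval −3.23 to −0.80, adjusted p = 0.35 by edgeR), so it did not pass. It was −2.63 without knockout 1 and −1.53 without control 1. DESeq2 called it, at an adjusted p of 0.00827, and edgeR called it without replicate 1 of both groups (0.0168) and with a hair follicle score as a covariate (0.0187). The adjusted p ranged from 0.00827 to 0.856 over the alternatives.

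Adipocyte genes also stood lower in the knockout. In all 6 tested genes of that 9-gene list the log2 fold change was below 0 (51.2% of all genes were above 0), with a median of −0.56. Cebpa was nearest 0, at −0.014, with 204, 161 and 181 CPM in knockout and 157, 202 and 192 CPM in control skin. In 4 genes the groups did not overlap (66.7% of the tested genes, against 6.78% of all genes with the knockout lower). Plin1, which coats lipid droplets, fell to 0.979, 0.446 and 0.932 CPM in knockout skin, against 8.93, 4.66 and 8.54 CPM in control skin (log2 fold change −3.22, SE 0.37, adjusted p = 0.0353 by edgeR). Adipoq, the adiponectin gene, stood at 1.24, 0.347 and 0.491 CPM in knockout and 19.9, 2.92 and 7.75 CPM in control skin (adjusted p = 0.308 by edgeR).

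In both groups the library with the most Adipoq was also that with the most Sfrp4, replicate 1. Of the 6 tested adipocyte genes, 2 were highest in replicate 1 of both groups (33.3%, against 17.4% of all genes). Pparg was lowest in replicate 1 in knockout skin (15.4, 19.6 and 20.9 CPM) and highest there in control skin (31.5, 27.3 and 28.7 CPM). The whole adipocyte list, Cebpa included, summed to 419, 445 and 499 CPM in knockout and 569, 538 and 603 CPM in control skin. Lep, the leptin gene, had 0 reads in all 3 knockout libraries and 14, 2 and 6 reads in the controls. The part of adipocyte content in the Sfrp4 difference was not tested.

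The remaining inhibitors of this group had overlapping groups. Sfrp2, the most abundant of them per length at 60.7 CPM per kb in knockout and 54.8 CPM per kb in control skin, had 128, 109 and 127 CPM in knockout and 97.6, 121 and 110 CPM in control skin (log2 fold change 0.15, SE 0.10, adjusted p = 0.78 by edgeR). Wif1 had 106, 131 and 136 CPM in knockout and 106, 132 and 115 CPM in control skin (log2 fold change 0.077, SE 0.12, adjusted p = 0.907 by edgeR). Sfrp1 and Sfrp5 stood at 0.13 and 0.01, and Sfrp5 had a wide interval of −0.99 to 1.01. Notum, also a transcript that follows β-catenin, had 4.43, 9.27 and 8.93 CPM in knockout and 4.59, 8.32 and 13.0 CPM in control skin, with replicate 1 the lowest in both groups (log2 fold change −0.19, 95% interval −1.24 to 0.85).

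The Dickkopf proteins DKK1, DKK2 and DKK4 act on LRP5 and LRP6, whereas DKK3 is a divergent member of the family. All 4 genes were tested and all had overlapping groups. Dkk3 had 17.4, 29.6 and 25.9 CPM in knockout and 24.6, 28.0 and 36.4 CPM in control skin (log2 fold change −0.29, SE 0.23, adjusted p = 0.821 by edgeR), and its value was −0.095 without knockout 1. Dkk2 had 18.4, 18.9 and 12.1 CPM in knockout and 17.7, 10.5 and 11.2 CPM in control skin (log2 fold change 0.33, SE 0.26, adjusted p = 0.817 by edgeR), and its value ranged from 0.18 without control 2 to 0.60 without control 1. Dkk1, a dermal inhibitor of follicle formation and one of the promoters printed above, had 9.28, 10.6 and 9.91 CPM in knockout and 9.03, 8.42 and 9.87 CPM in control skin.

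R-spondins are secreted proteins that raise the number of Wnt receptors at the cell surface by way of the LGR receptors and the ubiquitin ligases RNF43 and ZNRF3. Rspo3, which is also known for its role in vessel growth, had 19.6, 22.4 and 18.5 CPM in knockout and 17.8, 18.9 and 18.0 CPM in control skin (log2 fold change 0.14, SE 0.097, adjusted p = 0.78 by edgeR). Rspo1 had 13.5, 14.1 and 12.4 CPM in knockout and 13.0, 13.1 and 16.2 CPM in control skin (log2 fold change −0.079, SE 0.12, adjusted p = 0.907 by edgeR). The groups overlapped in both. Rspo2 had 12, 4 and 8 reads in knockout and 6, 5 and 8 reads in control libraries, and Rspo4 had 2, 2 and 7 reads in knockout and 3, 6 and 8 reads in control libraries, too few to be tested.

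The LGR receptors, of which LGR5 and LGR6 mark stem cells of the hair follicle, shared part of a library pattern. Lgr6 had 51.7, 91.1 and 89.7 CPM in knockout and 52.5, 99.4 and 97.1 CPM in control skin. Lgr4 had 49.3, 74.8 and 72.1 CPM in knockout and 54.6, 76.3 and 90.9 CPM in control skin, and Lgr5 had 26.9, 43.2 and 40.5 CPM in knockout and 20.9, 31.5 and 37.2 CPM in control skin. Replicate 1 was the lowest of each group in all 3 genes. The differences between groups were smaller than this spread, at log2 fold changes of −0.099 (SE 0.32), −0.18 (SE 0.23) and 0.30 (SE 0.26) for Lgr6, Lgr4 and Lgr5, with edgeR adjusted p = 0.96, 0.892 and 0.83. With 1 library left out, Lgr5 ranged from 0.10 without control 1 to 0.49 without knockout 1, and Lgr4 from −0.35 without control 1 to −0.0082 without control 3.

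The 5 genes of β-catenin and the TCF/LEF factors had log2 fold changes from −0.16 to 0.042. Ctnnb1, which encodes β-catenin and was the most abundant member, had 842, 1030 and 1040 CPM in knockout and 846, 979 and 999 CPM in control skin (log2 fold change 0.042, 95% interval −0.22 to 0.30, adjusted p = 0.949 by edgeR). Lef1, the nuclear partner of β-catenin in hair follicles, had 80.8, 96.6 and 90.8 CPM in knockout and 72.3, 100 and 95.2 CPM in control skin (log2 fold change 0.003, 95% interval −0.31 to 0.31, adjusted p = 0.998 by edgeR). Tcf7 stood at −0.16 (SE 0.20) and Tcf7l2 at −0.048 (SE 0.11), with edgeR adjusted p = 0.889 and 0.942, and Tcf7l1, known as a repressor in skin stem cells, at −0.021. The groups overlapped in all 5 genes.

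Axin2 is the transcript most often read as β-catenin output, and its protein feeds back to degrade β-catenin. It had 102, 101 and 101 CPM in knockout and 82.0, 86.3 and 95.3 CPM in control skin. The knockout libraries lay close together and above all 3 controls (log2 fold change 0.20, SE 0.07, 95% interval 0.038 to 0.37, adjusted p = 0.54 by edgeR), and the gene did not pass. Nkd1, another feedback inhibitor that follows β-catenin, had 89.0, 103 and 89.2 CPM in knockout and 85.1, 88.5 and 91.1 CPM in control skin, which overlapped (log2 fold change 0.088, SE 0.076, adjusted p = 0.83 by edgeR). Axin1, the constant scaffold of the destruction complex, had 66.6, 61.5 and 60.7 CPM in knockout and 58.9, 64.6 and 62.0 CPM in control skin. Reads of Axin2, Lef1, Notum, Rspo3, Sfrp2 and 5 further members could include reads of an overlapping gene, since exons of 10 of the 51 overlap those of another GENCODE gene and no source used here says whether strand was used in counting.

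**Figure D3:**
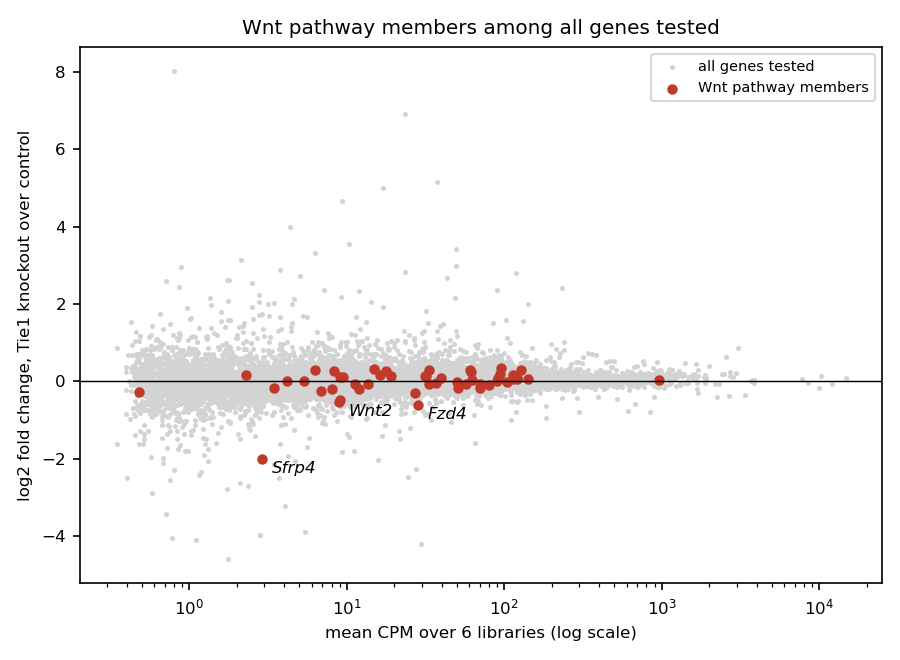
Log2 fold change (Tie1 knockout over control, vertical axis) against the mean CPM over 6 libraries (log axis) for the 15035 genes tested in grey and the 51 members in red. The members lie close to 0 over the range of 0.482 to 955 CPM, apart from Sfrp4 at −2.01, Fzd4 at −0.62 and Wnt2 at −0.54.

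Outside the membership rule, 63 further genes of the pathway were listed in 7 groups: Wnt secretion, cytoplasmic relay, β-catenin partners, other extracellular regulators, RNF43 and ZNRF3, planar polarity and Wnt5a receptors, and broad β-catenin targets. Of these, 61 were tested. edgeR called 0 (0.16% of all genes), and 5 had an unadjusted p under 0.05 (8.2%, against 7.42% of all genes), 4 higher and 1 lower. The groups did not overlap in 7 of the 61 (11.5%, against 13.8% of all genes). The median log2 fold change was −0.0033.

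Frzb, which encodes a further SFRP-type inhibitor, was the only lower gene of these 5, at 8.76, 11.9 and 11.2 CPM in knockout and 17.4, 15.4 and 17.5 CPM in control skin (log2 fold change −0.66, SE 0.14, adjusted p = 0.186 by edgeR). Kremen1, a co-receptor of Dickkopf proteins, had 166 CPM in each knockout library and 141, 142 and 142 CPM in control skin (log2 fold change 0.23, SE 0.053, adjusted p = 0.261 by edgeR). Ptk7, a planar polarity receptor, had 279, 295 and 291 CPM in knockout and 221, 253 and 259 CPM in control skin (log2 fold change 0.24, SE 0.079, adjusted p = 0.506 by edgeR). Gpc4 and Prickle1 stood at 0.19 and 0.15. These 5 genes are among the 7 whose groups did not overlap, and none passed edgeR.

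Of the 8 genes of the Norrin and WNT7 pathway of brain-type endothelium, 5 had a log2 fold change above 0 and 3 below it, with a median of 0.039. The groups overlapped in 6 of them, namely Ndp and Tspan12, given above, and Adgra2 (0.034), Reck (0.044), Mfsd2a (−0.085) and Cldn5 (0.18). The 2 that did not overlap, the knockout being higher (25% of the list, 7.03% of all genes), were those with the smallest p. Sox17, an endothelial transcription factor, had 13.5, 16.5 and 14.3 CPM in knockout and 12.6, 11.6 and 11.2 CPM in control skin (log2 fold change 0.32, SE 0.11, adjusted p = 0.541 by edgeR). Slc2a1, the gene of the glucose transporter GLUT1, had 426, 437 and 407 CPM in knockout and 181, 254 and 331 CPM in control skin (log2 fold change 0.73, SE 0.20, adjusted p = 0.43 by edgeR). It is also made by epidermis and induced by low oxygen. None of the 8 was called by edgeR.

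Many members varied between the libraries of a group. In 24 of the 51 members (47.1%) replicate 1 was the lowest library of both groups, against 19.3% of all genes tested, and it was the highest of both in 10 members (19.6%), against 17.4%. The count goes by rank alone, and some libraries lay close together, as for Lrp6 at 106, 107 and 109 CPM in control skin. Members lowest in replicate 1 included all 3 LGR genes, both LRP genes and 5 of the 10 Frizzled genes. Ctnnb1, Lef1, Tcf7, Wnt5a, Wnt10a, Wnt10b, Wnt6 and Notum were also among them. This is a description of correlated genes in 6 libraries and was not tested.

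Hair follicle genes also stood low in replicate 1. The 13 genes of that list found in the files summed to 97.1, 168 and 228 CPM in knockout and 89.8, 188 and 311 CPM in control skin, and 9 of the 12 tested were lowest in replicate 1 of both groups. All 6 melanocyte genes were as well, as were 6 of 10 dermal papilla genes and 5 of 9 epidermal genes, but 0 of 9 dermal fibroblast genes and 0 of 10 pan-endothelial genes. The part of hair follicle content in the member levels was not tested. The libraries also differed in Y-linked genes, which summed to 2.79, 160 and 140 CPM in knockout and 3.36, 2.73 and 144 CPM in control skin, so the sexes were not balanced. Genes of the posterior Hox set, whose level follows body position, summed to 138, 154 and 156 CPM in knockout and 156, 125 and 125 CPM in control skin. Single genes of the set differed more than the sum or less. The widest range was that of Hoxc10, with 12.5, 17.0 and 18.7 CPM in knockout and 16.4, 6.09 and 1.23 CPM in control skin. Hoxa10 had 8.56, 9.27 and 11.4 CPM in knockout and 9.92, 3.27 and 3.31 CPM in control skin. Hoxc8 had 28.7, 32.5 and 29.7 CPM in knockout and 34.0, 31.6 and 33.3 CPM in control skin. The part of sex and body position in the member levels was not tested.

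**Figure D4:**
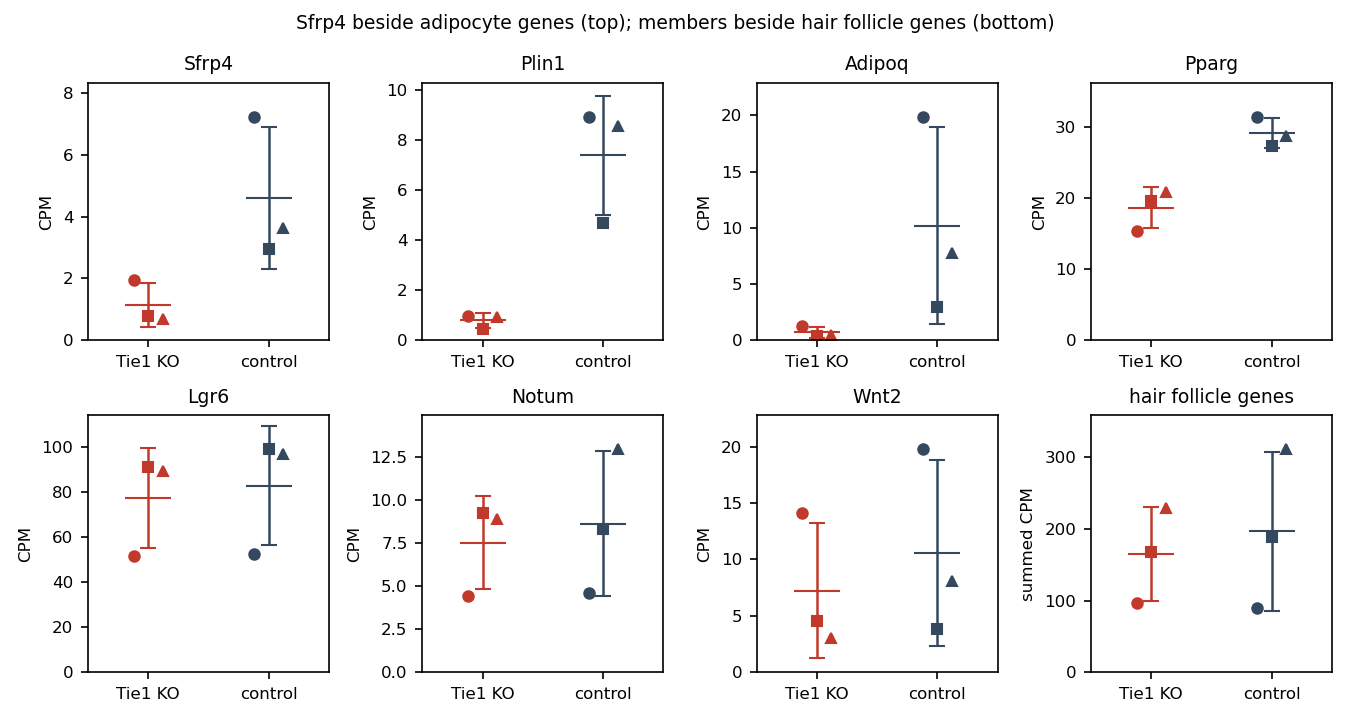
CPM in Tie1 knockout (left of each panel) and control skin (right), with 1 point per library (circle, square and triangle for replicates 1, 2 and 3) and bars for mean ± SD (n = 3 each). Sfrp4 and the adipocyte genes Plin1, Adipoq and Pparg are lower in the knockout with no overlap (top), while Lgr6, Notum and the summed hair follicle genes are lowest in replicate 1 of both groups and Wnt2 is highest there (bottom).

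**Figure D5:**
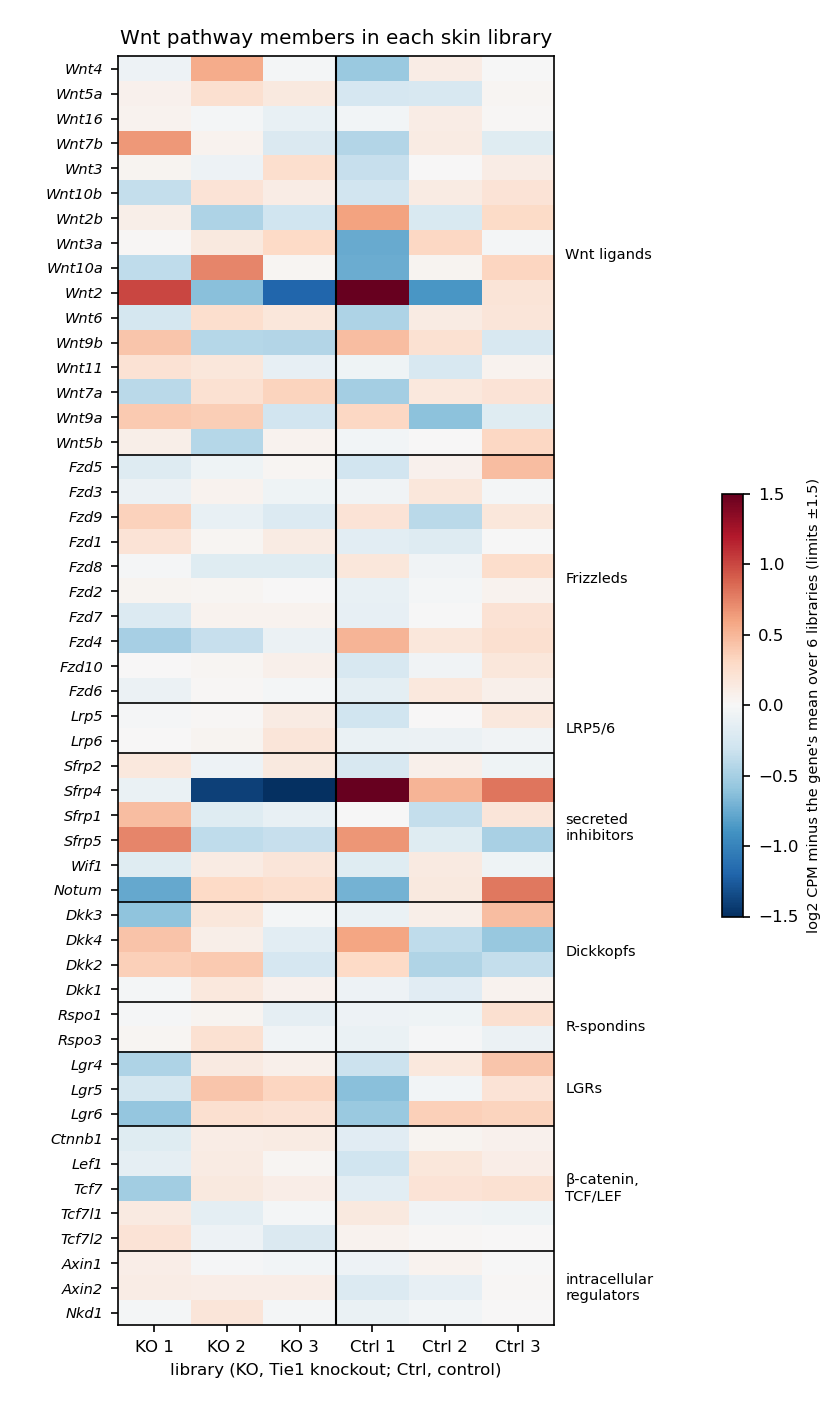
Heat map of the 51 members (vertical, by role) in the 3 Tie1 knockout (left) and 3 control libraries (right), as log2 CPM minus the mean of each gene over the 6 libraries, with colours limited at ±1.5. Sfrp4 and Fzd4 are lower in each knockout library than in any control library, though neither passed the edgeR test, whereas the LGR genes and Notum are low in replicate 1 of both groups and Wnt2 is high there.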

How the data were processed

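Each deposited file holds 1 estimated count per gene and library, and the authors' values were not scaled: totals differ between libraries, and 31.0 to 31.9% of the values lay more than 0.001 off an integer. RSEM 1.2.12, HISAT2 2.0.4, Bowtie2 2.2.5 and the build GRCm38.p6 are listed, with no role given, per the submitters' processing notes. Per the labels' protocols, RNA was extracted with Trizol, mRNA was captured with oligo(dT) beads and libraries were amplified by PCR.

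Estimated counts were rounded, filtered with filterByExpr at a minimum count of 10 and scaled by TMM, leaving 15035 genes. In R 4.3.3, edgeR 4.0.16 fitted a robust quasi-likelihood model with genotype as its only term, and p-values were adjusted by Benjamini-Hochberg over all genes. The SE is the absolute log2 fold change divided by the root of F, and intervals use the test's degrees of freedom. The procedure was tested on simulated data. Alternatives used DESeq2 1.42.0, limma 3.58.1 (voom), other scalings and filters, covariates and fewer libraries. Coordinates come from RefSeq on GRCm38.p6. Members named with values were those at an unadjusted p under 0.05, the 2 with the smallest p and the most abundant in each of 9 role groups, and 5 fixed transcripts, with the untested ones by their reads. From each context list the 3 with the smallest p could be named. Wnt2, Wnt6, Wnt7b, Wnt10b, Dkk1, Axin1, Tcf7l1, Sfrp1, Sfrp5, Tspan12, Lep and the members given as ends of a range were added after their values were seen. So were Cebpa and Hoxc10. Members, gene lists and tests were chosen with earlier results of these data known.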

Additional observations from a re-analysis of the deposited data

How the results depend on the processing

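The count of members called higher was 0 under all 20 alternatives. Members called lower, 0 by edgeR with all libraries, numbered 2 with DESeq2 (Sfrp4 and Fzd4) and 1 (Sfrp4) with the hair follicle score as a covariate and without replicate 1 of both groups. Sfrp4 and Fzd4 kept a negative log2 fold change throughout. The count at an unadjusted p under 0.05 ranged from 3 to 6 with 1 library left out. It was 8 with the hair follicle score as a covariate and 7 with a posterior Hox score or a sex score. The share of all genes at that p was not counted in these fits, so these counts are not a result about the members. The median log2 fold change, 0.042, was 0.12 with a posterior Hox score as a covariate and −0.021 without replicate 1 of both groups, and ranged from −0.0091 to 0.08 with 1 library left out. All genes called, 24 by edgeR, numbered 38 without a filter, 210 with DESeq2, 15 with limma-voom, 115 with the hair follicle score, 139 without replicate 1 of both groups and 1 to 11 with 1 library left out. The cause of these moves was not tested.

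Same-numbered libraries deviated together at r = 0.41, 0.04 and 0.27 over 15035 genes, and knockout 2 correlated better with control 3 (0.18), so the numbers were not taken as pairs. With the replicate block 1 member was called lower (Sfrp4, −2.04, adjusted p = 0.0297) and 52 genes in all. In that fit 9 members had an unadjusted p under 0.05, and the share of all genes at that p was not counted.

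Of 500 values of 25 named members under alternatives, 467 kept direction and call, 5 gained a call and 28, of 9 members near 0, had the opposite sign. Lef1 was −0.026 with upper-quartile scaling, −0.0045 without a filter, −0.054 with a sex score and −0.06 without replicate 1 of both groups, where Lrp5 was −0.018. With the hair follicle score Lgr6 was 0.023 and Notum 0.014. With the posterior Hox score Lgr6 was 0.23, Notum 0.43, Lgr4 0.085 and Rspo1 0.051. With the sex score Tcf7l2 was 0.0049 and Ctnnb1 −0.03. With 1 library left out the ranges were −0.13 to 0.086 for Lef1, −0.03 to 0.13 for Ctnnb1, −0.34 to 0.12 for Lgr6, −0.28 to 0.024 for Tcf7, −0.18 to 0.042 for Tcf7l2, −0.50 to 0.22 for Notum, −0.047 to 0.17 for Lrp5 and −0.14 to 0.027 for Rspo1. Without a change of sign they were 0.068 to 0.43 for Wnt4, −0.67 to −0.26 for Wnt2b, 0.011 to 0.091 for Fzd2, 0.10 to 0.20 for Lrp6, 0.07 to 0.22 for Sfrp2, 0.0062 to 0.18 for Wif1, 0.059 to 0.20 for Rspo3 and 0.012 to 0.12 for Nkd1. Low counts limit Rspo2, Rspo4, Wnt1, Wnt8a and Wnt8b.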
